A study of Homo sapiens with 12 samples.

Results

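Interferon-stimulated effector genes are the antiviral and antigen-processing genes that cells switch on in response to interferon. Here they are a list of 59 named genes, matched by symbol to the count table of 28395 genes, and all 59 were found. Of these, 58 passed the filter on low counts and were among the 15853 genes tested. RTP4 did not pass, and 49 members passed when the libraries of the line with both factors were left out of the filter. The list was drawn up from knowledge of the pathway and not from a measured value of this experiment, although results of these data were known when it was chosen.

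RNA-seq of polyA RNA was performed on 4 stable lines of HCT116, a human colorectal cancer cell line, with 3 libraries each. The question was which of EHF, an ETS family transcription factor of epithelia, CDX1, a caudal homeobox factor of the intestine, or both together went with a change in these genes. HCT116 EV cells (labelled HCT116-pcDNA) carried the empty pcDNA plasmid and HCT116 EHF cells (HCT116-EHF) carried the EHF expression plasmid. Both were made by isolating geneticin-resistant clones. HCT116 CDX1 cells (HCT116-CDX) carried a CDX1 retrovirus with a GFP marker, were sorted for GFP, and have no empty plasmid, geneticin selection or cloning stated. HCT116 EHF+CDX1 cells (HCT116-EHF-CDX1) were geneticin-resistant clones obtained by transfecting HCT116 CDX1 cells with the EHF plasmid, so vector, selection and cloning differed between the lines along with the factors and cannot be told apart from them. The lines are called EV, EHF, CDX1 and EHF+CDX1 cells hereafter. Each condition was 1 line, no empty retrovirus is listed, the labels give the infection of every line as none and name no interferon treatment, and they do not say whether the 3 libraries of a line came from separate cultures. The p-values therefore measure the spread between libraries, which may be technical. For its RNA-seq clustering the paper counts fewer biological replicates than the 3 libraries per line, without stating which libraries these were.

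Levels are given as CPM, read counts scaled to a common library total with TMM factors, as mean ± SD over the 3 libraries of a line. The transgenes matched the labels. EHF was at 299 ± 54.4 CPM in EV, 19312 ± 305 in EHF, 12.3 ± 0.603 in CDX1 and 18708 ± 1433 in EHF+CDX1 cells. CDX1 had 525 ± 35.8 CPM in CDX1 and 5419 ± 277 in EHF+CDX1 cells, and at most 0.04999 CPM in any EV or EHF library. The lines with CDX1 thus differed in how much CDX1 they expressed. Total counts ranged from 13523007 to 74186741 per library, so that a floor of 3 counts, which covers counting error only, lay between 0.0375 and 0.207 CPM. EV replicate 3 stood apart from the other libraries of its line. Its counts differed from those of replicates 1 and 2 with a chi-square of 329 and 299 per degree of freedom, against 4.29 between replicates 1 and 2, and results that turn on it are given with and without it.

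Interferons of type I and type III bind different receptors but signal through the same kinases, JAK1 and TYK2. These lead to the assembly of ISGF3, a complex with IRF9 that binds the interferon-stimulated response element (ISRE) in the promoters of its target genes. The targets include enzymes that detect or destroy viral RNA, proteins that block viral entry and release, the ubiquitin-like modifier ISG15 and its ligases, and subunits of the immunoproteasome that cuts peptides for presentation. In the gut epithelium these genes form a barrier against enteric viruses and respond to type III interferon in particular.

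The ISRE was searched for as GAAA followed, after any 2 bases, by GAAA again, on both strands of the RefSeq promoter window of each gene, which runs from 250 bases before to 50 bases after the start. A window was given for 49 of the 59 members, and 31 of these 49 (63.3%) held the letters, against 3.65% of all 27305 windows and 2.79% of the 12089 windows of tested genes. The letters lay before the start in 27 members. A match of letters is a description of the sequence and not a measured binding site. Of the 11 named members with a match, MX1 holds it after the start and is not printed. Of those with a match before the start, the 8 with the largest fold change in EHF+CDX1 against EV cells are shown, to set the letters beside members with large and small responses, from IFI44L to IFITM3. They are printed on the strand of the gene from RefSeq, build GRCh38.p14, with every base of a match in capitals. Copies of the letters overlapped in HERC5 and ISG15.
IFI44L: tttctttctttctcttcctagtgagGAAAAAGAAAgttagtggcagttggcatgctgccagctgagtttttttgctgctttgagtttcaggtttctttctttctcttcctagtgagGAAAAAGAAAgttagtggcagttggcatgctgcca
IFIT1: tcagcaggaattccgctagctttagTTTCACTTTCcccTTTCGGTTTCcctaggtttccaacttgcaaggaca
SAMD9: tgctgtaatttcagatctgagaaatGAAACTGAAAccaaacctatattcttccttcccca
HERC5: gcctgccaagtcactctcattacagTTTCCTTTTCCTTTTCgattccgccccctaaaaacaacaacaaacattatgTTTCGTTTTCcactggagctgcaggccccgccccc
ISG15: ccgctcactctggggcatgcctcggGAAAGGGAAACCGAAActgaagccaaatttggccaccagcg
ISG20: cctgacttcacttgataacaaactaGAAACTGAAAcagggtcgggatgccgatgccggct
PARP14: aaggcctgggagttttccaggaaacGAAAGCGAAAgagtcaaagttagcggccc
IFITM3: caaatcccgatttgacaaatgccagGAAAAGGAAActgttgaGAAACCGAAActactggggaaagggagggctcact

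The stretch of IFI44L is chr1:78620259-78620409 on the plus strand, and its copies of the letters begin at positions -164 and -73 from the start. That of IFIT1 is chr10:89392482-89392554 on the plus strand, and that of SAMD9 is chr7:93118081-93118140 on the minus strand. HERC5 is shown at chr4:88456969-88457079, ISG15 at chr1:1013359-1013424, ISG20 at chr15:88638922-88638981 and PARP14 at chr3:122680785-122680838, all on the plus strand. IFITM3 is shown at chr11:320861-320937 on the minus strand, with copies beginning at positions -52 and -35. All 8 stretches lie before the start of the window's transcript. For ISG20 that start lies within the annotated bounds of the gene, chr15:88635632-88656483.

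In EHF+CDX1 cells most of the effector genes were higher than in EV cells. A gene was called where edgeR's quasi-likelihood test against a 1.5-fold change gave an adjusted p under 0.05 over all genes tested. By this test 48 of the 59 members rose and 0 fell, while 7.3% of all tested genes rose and 3.13% fell. Against no change, 55 rose at an adjusted p under 0.05 and 0 fell. The median log2 fold change of the 58 tested members was 2.41, and 2.38 over all 59 with members at a floor placed at their bound, against -0.03 over all genes. Among the 49 members that passed the filter without the EHF+CDX1 libraries, 39 rose, against 5.75% of the genes that passed in that way. In bulk RNA, more cells expressing a gene and more RNA per cell cannot be told apart. The summed level of the 59 members lay between 5254 and 5371 CPM in the EHF+CDX1 libraries, between 2059 and 3021 in EV, between 2665 and 2735 in EHF and between 2085 and 2208 in CDX1. The line with both factors did not overlap any other line in this sum, and the highest EV value was that of replicate 3.

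Gene by gene, all 3 EHF+CDX1 libraries lay above all 9 other libraries for 50 of the 59 members, against 6.06% of all genes tested. The 50 include OAS2, MX2, GBP1, RSAD2, SAMD9L, IFI44L, XAF1, CXCL10 and CXCL11. These passed the filter only through the EHF+CDX1 libraries, so the filter itself favored this order for them. The share of all genes was not computed without genes of that kind. The 9 exceptions were DDX60L, IFITM2, ISG20, RTP4, LGALS3BP, PARP12, TRIM22, TRIM25 and PSMB10. The counts by role group given below stand beside the 7.3% of all tested genes that rose in EHF+CDX1 against EV cells.

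**Figure D1:**
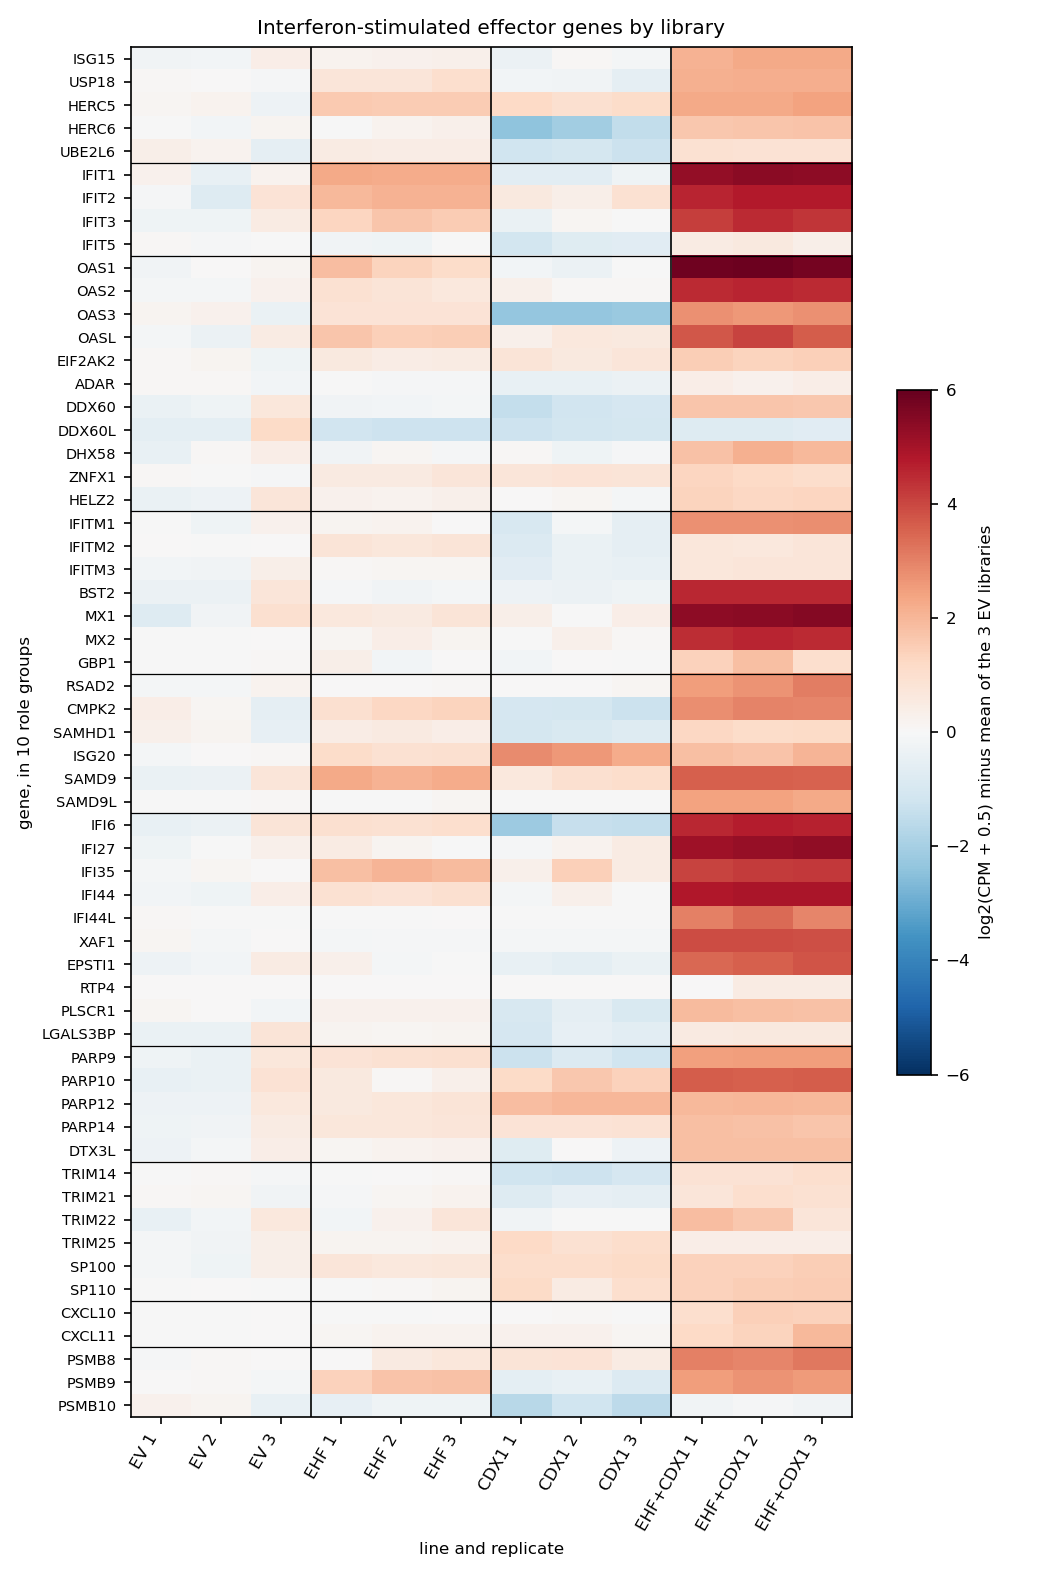
Each row is an effector gene, grouped by role, and each column is one of the 12 libraries, with color for log2(CPM + 0.5) minus the mean of the 3 EV libraries. The 3 columns of EHF+CDX1 cells on the right are red in nearly every row, while the EHF columns are paler and the CDX1 columns mix red and blue.

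Against EV cells, 12 members rose and 0 fell in EHF cells, where 5.68% of all genes rose and 2.65% fell, and the median log2 fold change was 0.40. This count rested in part on EV replicate 3. Without that library 20 members rose, where 9.47% of all genes rose, and the median was 0.70. The 8 members called in addition were IFI6, IFI44, IFITM2, SP100, MX1, PARP9, PARP14 and PARP12. In CDX1 cells 10 members rose and 14 fell, while 21.3% of all genes rose and 23.3% fell, so that the shares of the members were near those of all genes. The median there was -0.39, and 0.04 without EV replicate 3. Without that library 13 members rose and 13 fell, where 26.2% of all genes rose and 24.9% fell. IFIT2, MX1, PARP14, PSMB9 and SAMD9 were then called in addition, and XAF1, CXCL11 and DDX60L were no longer called. All 3 CDX1 libraries lay below the 9 others for 20 of the 59 members, against 25.8% of all genes. These comparisons share the EV libraries.

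**Figure D2:**
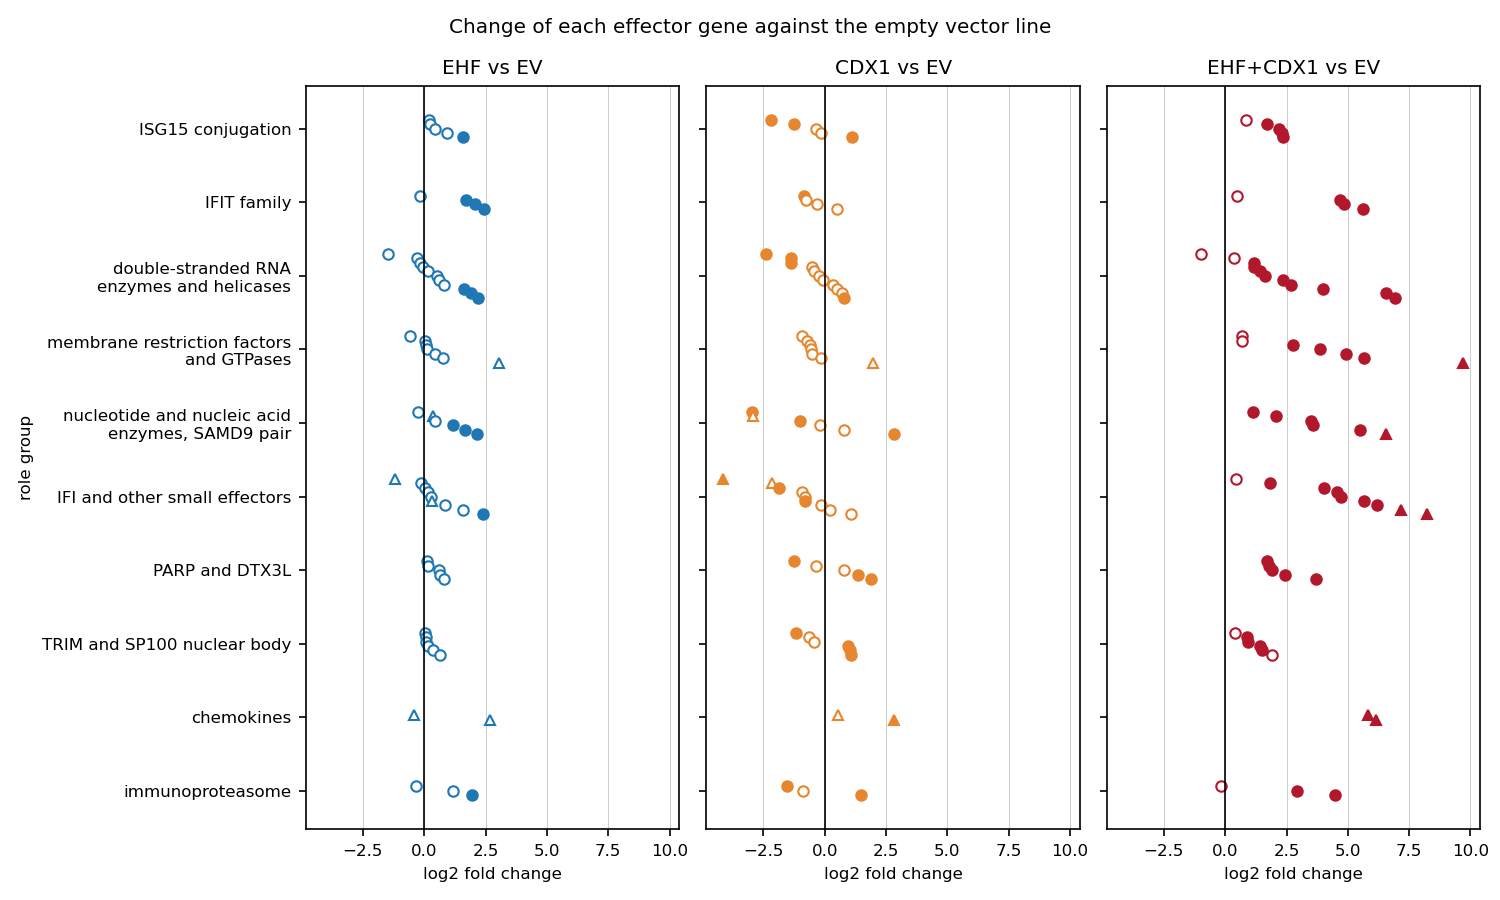
Each point is one effector gene in its role group, with the log2 fold change against EV cells on the x axis from left to right in EHF, CDX1 and EHF+CDX1 cells. Filled points passed the 1.5-fold test, and triangles are genes with at most 3 counts over a line, whose fitted values depend on the prior count. The filled points in the right panel all lie above 0.

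ISG15 is a ubiquitin-like protein that is attached to other proteins by UBE2L6 and HERC5 and removed by USP18, and 4 of the 5 genes of this group rose in EHF+CDX1 cells. ISG15 was at 67.7, 69.9 and 102 CPM in the EV libraries, 90.4, 94.6 and 97.6 in EHF, 62.5, 83.4 and 72.1 in CDX1 and 339, 379.5 and 381 in EHF+CDX1. The last line stood clear of all other libraries, and EV overlapped both single-factor lines. The log2 fold change was 2.19 ± 0.16 (SE), with an adjusted p of 5.54e-06 in edgeR's 1.5-fold test. USP18, which also restrains signalling at the type I interferon receptor, had 3.49, 3.41 and 3.09 CPM in EV, 5.75, 5.73 and 7.26 in EHF, 2.89, 2.75 and 2.16 in CDX1 and 16.0, 17.0 and 16.9 in EHF+CDX1. Its log2 fold change was 2.33 ± 0.15 (adjusted p = 2.15e-06 in edgeR).

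HERC5, the main ligase for ISG15, behaved differently from both. It had 9.13, 9.66 and 6.74 CPM in EV, 25.6, 25.5 and 24.96 in EHF, 19.96, 16.8 and 18.7 in CDX1 and 42.9, 42.4 and 46.3 in EHF+CDX1. The 4 lines did not overlap. HERC5 rose with each factor, with a log2 fold change of 1.59 ± 0.13 in EHF, 1.13 ± 0.13 in CDX1 and 2.38 ± 0.13 in EHF+CDX1 cells, and its interaction of -0.34 was not called. HERC6, its neighbor on chromosome 4, fell in CDX1 cells by 2.20 ± 0.24 and rose in EHF+CDX1 cells by 1.71 ± 0.22 on the log2 scale. UBE2L6 had a log2 fold change of 0.86 in EHF+CDX1 cells and was not called, although its 3 libraries there lay above the 9 others.

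The IFIT proteins bind viral RNA that lacks the host's cap methylation and block its translation. IFIT1, IFIT2 and IFIT3 rose in EHF+CDX1 cells, and the fourth gene, IFIT5, with a log2 fold change of 0.49, was not called. IFIT1 had 2.33, 1.23 and 2.24 CPM in EV, 11.2, 10.8 and 10.498 in EHF, 1.01, 1.04 and 1.47 in CDX1 and 90.2, 99.6 and 98.6 in EHF+CDX1. EHF libraries lay above EV and CDX1, and those of the line with both factors lay far above all. The log2 fold change of IFIT1 was 2.45 ± 0.19 in EHF (adjusted p = 1.09e-05) and 5.60 ± 0.20 in EHF+CDX1 cells (adjusted p = 7.17e-09), both in edgeR. IFIT2 had 1.25, 0.568 and 2.66 CPM in EV, 6.38, 7.16 and 7.19 in EHF, 2.21, 1.82 and 2.91 in CDX1 and 42.8, 48.3 and 48.9 in EHF+CDX1. It rose by 2.08 ± 0.35 on the log2 scale in EHF cells and by 4.82 ± 0.36 in EHF+CDX1 cells, and by 2.92 and 5.65 without EV replicate 3, the highest library of its line. The 4 genes lie together on chromosome 10, where RefSeq places them within the bounds of LIPA, and the strand setting of the counting is not given in the sources used here, so reads of overlapping genes are uncertain. All 4 passed the interaction test upward.

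Enzymes and helicases that act on double-stranded RNA made up 11 members, of which 9 rose in EHF+CDX1 cells. OAS2 is among the 9 and passed the filter only through the EHF+CDX1 libraries, which favored its rise. OAS1 and OAS2 are oligoadenylate synthetases, whose product activates the ribonuclease RNase L. OAS1 had 0.258, 0.379 and 0.478 CPM in EV, 2.66, 1.70 and 1.37 in EHF, 0.285, 0.177 and 0.360 in CDX1 and 49.8, 50.8 and 46.1 in EHF+CDX1. The CDX1 libraries overlapped EV, and the EHF libraries lay between these and the line with both factors. Its log2 fold change was 2.18 ± 0.30 in EHF and 6.94 ± 0.28 in EHF+CDX1 cells, with an adjusted p of 1.88e-08 for the latter in edgeR. OAS2 had 0.0431, 0.0473 and 0.221 CPM in EV, 0.638, 0.525 and 0.425 in EHF, 0.241, 0.126 and 0.129 in CDX1 and 12.9, 13.5 and 12.6 in EHF+CDX1. It rose by 6.57 ± 0.38 on the log2 scale in the line with both factors, and by 8.08 without EV replicate 3. Its rise of 1.89 ± 0.44 in EHF cells, with an adjusted p of 0.0358, was not called by limma voom or DESeq2, nor without any 1 of the EHF or EHF+CDX1 libraries or EV replicate 1 or 2, and it was 3.36 without EV replicate 3.

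The third gene of that cluster on chromosome 12, OAS3, differed from OAS1 and OAS2 in CDX1 cells. OAS3 was at 40.6, 42.9 and 27.0 CPM in EV, 63.8, 64.7 and 64.8 in EHF, 6.86, 6.80 and 7.33 in CDX1 and 243, 218 and 244 in EHF+CDX1. The 4 lines were fully separated, with CDX1 lowest. OAS3 fell by 2.39 ± 0.15 on the log2 scale in CDX1 and rose by 2.68 ± 0.15 in EHF+CDX1 cells. Whether OAS3 and its neighbors differed from each other in this respect was not tested.

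EIF2AK2, the kinase PKR that halts translation on binding double-stranded RNA, rose by 1.43 ± 0.11 on the log2 scale in EHF+CDX1 cells. ADAR, which edits adenosines in double-stranded RNA and is made from a constitutive and an interferon-driven promoter, had the highest counts of this group. It had 397, 393 and 339 CPM in EV, 364, 356 and 363 in EHF, 274, 275 and 291 in CDX1 and 492, 454 and 491 in EHF+CDX1. The line with both factors was highest and CDX1 lowest, but with a log2 fold change of 0.35 ± 0.09 over EV cells ADAR was not called. DDX60 and DDX60L, related helicases next to each other on chromosome 4, differed in EHF+CDX1 cells. DDX60 rose by 1.61 ± 0.24 on the log2 scale. DDX60L had a log2 fold change of -0.99 ± 0.36 and was not called, with 42.6, 42.4 and 142 CPM in EV and 37.4, 37.1 and 39.9 in EHF+CDX1. The high mean of EV cells came from replicate 3. The difference between the pair was not tested.

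Membrane restriction factors and dynamin-like GTPases made up 7 members, of which 5 rose in EHF+CDX1 cells. MX2 and GBP1 are among the 5 and passed the filter only through the EHF+CDX1 libraries, which favored their rise. In either single-factor line 0 of the 7 passed the test. Without EV replicate 3, MX1 and IFITM2 were called higher in EHF cells and MX1 also in CDX1 cells. The GTPases MX1 and MX2 trap viral nucleocapsids. MX1 had 0.172, 0.473 and 1.73 CPM in EV, 1.28, 1.16 and 1.42 in EHF, 0.964, 0.606 and 1.003 in CDX1 and 45.9, 47.7 and 51.5 in EHF+CDX1. EV spanned both single-factor lines, and the line with both factors lay far above them. The log2 fold change was 5.68 ± 0.46, with an adjusted p of 4.73e-06 in edgeR, and 7.24 without EV replicate 3, the highest EV library. MX2, beside MX1 on chromosome 21, had 0, 0 and 1 counts in EV, 1, 8 and 6 in EHF, 0, 5 and 1 in CDX1 and 600, 617 and 155 in EHF+CDX1. With 1372 counts against 1, the ratio of EHF+CDX1 to EV after scaling for depth was 1089, with an exact 95% counting interval of 195 to 43046. The counting intervals cover counting error only. BST2, or tetherin, which holds budding virus particles at the cell surface, rose by 4.94 ± 0.34 on the log2 scale.

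The 3 IFITM genes, small membrane proteins that block viral fusion, lie within a short stretch of chromosome 11. They are similar in sequence and only uniquely mapped reads were counted, so their values are uncertain, by an amount not tested for each gene. IFITM1 rose by 2.77 ± 0.20 on the log2 scale, from 11.7, 9.66 and 14.2 CPM in EV to 79.8, 81.2 and 83.3 in EHF+CDX1. IFITM3 had 285, 268 and 407 CPM in EV, 326, 339 and 337 in EHF, 196, 235 and 235 in CDX1 and 509, 517 and 512 in EHF+CDX1. The line with both factors was highest, but the log2 fold change of 0.68 ± 0.14 was not called. Without EV replicate 3, the highest library of its line, it was 0.89 and was called. IFITM2 had a log2 fold change of 0.69 ± 0.10 and was not called, and its libraries overlapped between EHF and EHF+CDX1 cells.

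**Figure D3:**
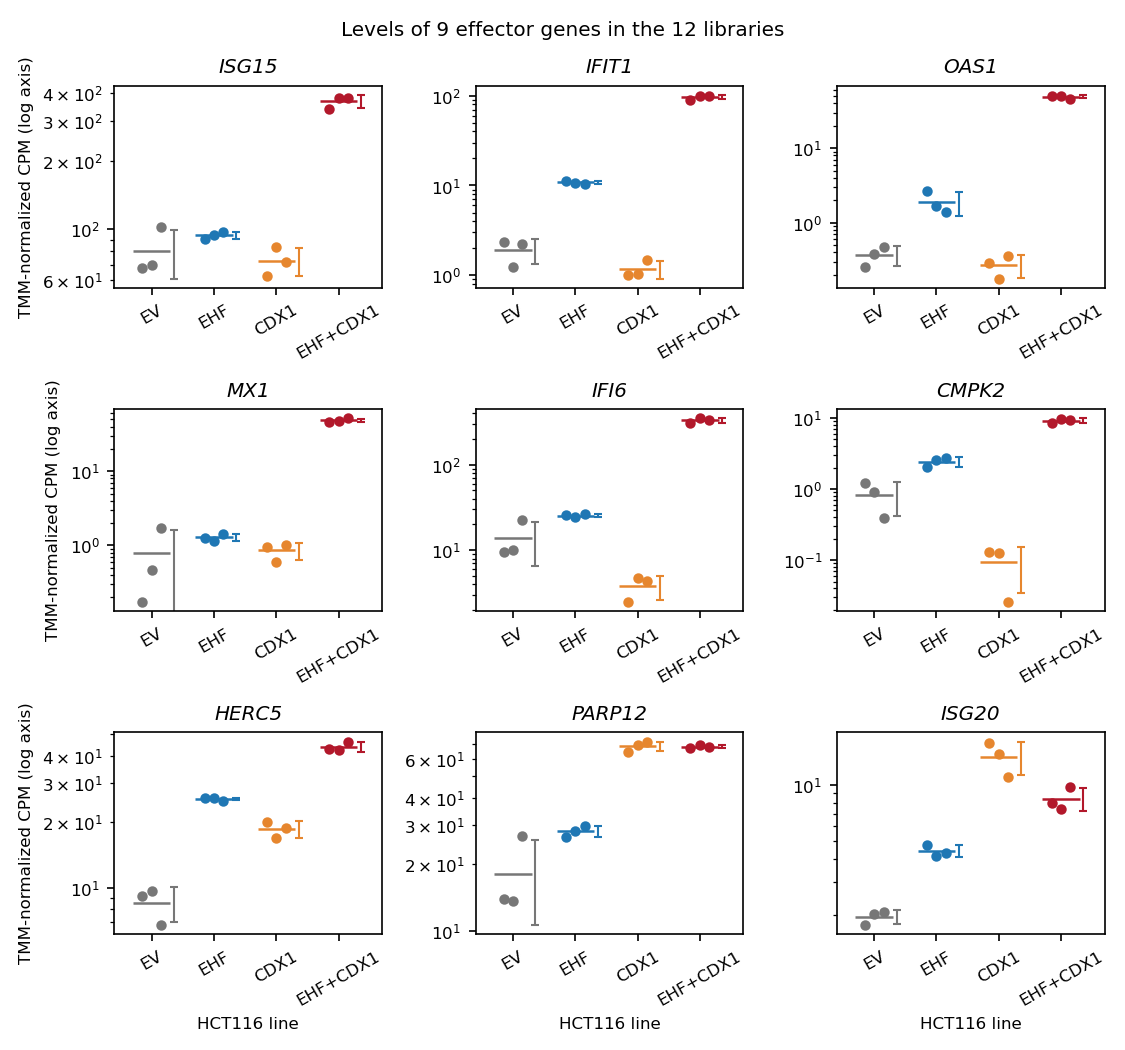
Each panel gives one gene, with points for the 3 libraries of each line, horizontal lines for the mean and bars for 1 SD, in TMM-normalized CPM on a log axis, where bars reaching 0 or below run off the axis. ISG15, IFIT1, OAS1, MX1, IFI6 and CMPK2 were highest in EHF+CDX1 cells without overlap, HERC5 rose in both single-factor lines, PARP12 was about as high in CDX1 as in EHF+CDX1 cells, and ISG20 was highest in CDX1 cells.

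Enzymes of nucleotides and nucleic acids, with the paired genes SAMD9 and SAMD9L, made up 6 members, and all 6 rose in EHF+CDX1 cells. RSAD2 and SAMD9L passed the filter only through the EHF+CDX1 libraries, which favored their rise. CMPK2 is a mitochondrial nucleotide kinase that overlaps the start of its neighbor RSAD2, which encodes viperin, an enzyme that makes a chain-terminating nucleotide. CMPK2 had 1.21, 0.899 and 0.386 CPM in EV, 2.02, 2.54 and 2.71 in EHF, 0.131, 0.126 and 0.0257 in CDX1 and 8.44, 9.74 and 9.40 in EHF+CDX1. The 4 lines were separated, in the order CDX1, EV, EHF and EHF+CDX1. CMPK2 fell by 2.97 ± 0.52 on the log2 scale in CDX1 and rose by 1.66 ± 0.36 in EHF and 3.56 ± 0.37 in EHF+CDX1 cells. The rise in EHF cells was not called by limma voom or without any 1 of the EHF or EHF+CDX1 libraries. RSAD2 rose by 5.51 ± 0.56 in the last.

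SAMD9 and SAMD9L are neighbors on chromosome 7 that encode related antiviral proteins which shut down translation. SAMD9 had 4.22, 4.31 and 9.87 CPM in EV, 29.2, 26.0 and 28.6 in EHF, 9.18, 11.5 and 12.3 in CDX1 and 73.3, 72.7 and 70.9 in EHF+CDX1. It rose by 2.14 ± 0.27 on the log2 scale in EHF and by 3.51 ± 0.28 in EHF+CDX1 cells. SAMD9L, in contrast, had 2 counts in all over EV, 4 over EHF and 0 over CDX1, and 127, 118 and 29 in the EHF+CDX1 libraries. Its ratio of EHF+CDX1 to EV was 109, with an exact 95% counting interval of 29.8 to 902, and it was at least 91.1-fold higher than in CDX1 cells, taking 3 counts over the line as the floor. SAMD9 was thus detected in all lines, while SAMD9L had at most 4 counts in any library outside the line with both factors. The difference between the pair was not tested.

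ISG20, an exonuclease of single-stranded RNA, was the member whose pattern departed most from the others. It had 1.77, 2.04 and 2.08 CPM in EV, 4.79, 4.14 and 4.34 in EHF, 16.8, 14.6 and 11.04 in CDX1 and 8.02, 7.44 and 9.74 in EHF+CDX1. All 3 CDX1 libraries lay above those of the line with both factors. ISG20 rose by 1.16 ± 0.19 on the log2 scale in EHF, 2.84 ± 0.19 in CDX1 and 2.08 ± 0.19 in EHF+CDX1 cells. The first of these was not called by limma voom or DESeq2, nor without EV replicate 1 or EHF replicate 1. SAMHD1, which degrades deoxynucleotides, fell by 0.995 ± 0.18 in CDX1 and rose by 1.15 ± 0.18 in EHF+CDX1 cells.

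Of the 10 IFI genes and other small effectors, 9 were tested and 8 of them rose in EHF+CDX1 cells. IFI44L and XAF1 are among the 8 and passed the filter only through the EHF+CDX1 libraries, which favored their rise. IFI44L, related to the neighboring IFI44 on chromosome 1, had 1 count in all over EV, 2 over EHF and 0 over CDX1, against 208, 261 and 50 in the EHF+CDX1 libraries. The ratio to EV was 412, with an exact 95% counting interval of 73.6 to 16303, and IFI44L was at least 173-fold higher than in CDX1 cells. XAF1, which opposes an inhibitor of apoptosis, had 2, 0 and 3 counts in EV, 0, 1 and 2 in EHF, 0 in each CDX1 library and 445, 406 and 108 in EHF+CDX1. Its ratio to EHF was 376, with an exact 95% counting interval of 128 to 1828, and XAF1 was at least 319-fold higher than in CDX1 cells.

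IFI6, a mitochondrial and endoplasmic reticulum protein that blocks flavivirus replication, was at 9.43, 9.94 and 22.3 CPM in EV, 25.5, 24.3 and 26.5 in EHF, 2.48, 4.67 and 4.43 in CDX1 and 311, 348 and 329 in EHF+CDX1. It fell by 1.88 ± 0.31 on the log2 scale in CDX1 and rose by 4.54 ± 0.33 in EHF+CDX1 cells. IFI27 rose by 5.64 ± 0.25, IFI44 by 6.19 ± 0.37, IFI35 by 4.72 ± 0.32 and EPSTI1 by 4.02 ± 0.28 in the latter. LGALS3BP, a secreted glycoprotein with the highest counts of the group, had 422, 423 and 959 CPM in EV, 630.2, 605 and 615 in EHF, 279.7, 390.3 and 352 in CDX1 and 800.5, 838 and 833 in EHF+CDX1. Its log2 fold change of 0.45 ± 0.26 was not called, and without EV replicate 3 it was 0.96 and was called. RTP4, the member that did not pass the filter, had 0, 11 and 3 counts in the EHF+CDX1 libraries and 0 in all 9 others, which put it at least 3.704-fold higher than in EV cells.

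PARP9, PARP10, PARP12 and PARP14 attach ADP-ribose to proteins, and DTX3L is a ubiquitin ligase that works as a partner of PARP9. All 5 rose in EHF+CDX1 cells. PARP10 had 1.08, 1.09 and 3.31 CPM in EV, 2.71, 1.72 and 2.09 in EHF, 4.21, 5.99 and 4.99 in CDX1 and 25.6, 24.7 and 25.6 in EHF+CDX1. It rose by 1.36 ± 0.35 on the log2 scale in CDX1 and by 3.68 ± 0.36 in EHF+CDX1 cells. The rise in CDX1 cells was not called without EV replicate 1, EV replicate 2 or CDX1 replicate 2. Without EV replicate 3, the highest library of its line, the rises were 2.22 and 4.54. PARP9 had 12.8, 11.4 and 24.8 CPM in EV, 27.6, 29.3 and 30.1 in EHF, 6.07, 8.54 and 6.51 in CDX1 and 87.8, 90.8 and 90.4 in EHF+CDX1. PARP9 fell by 1.23 ± 0.24 on the log2 scale in CDX1, a call not made by limma voom, and rose by 2.44 ± 0.25 in EHF+CDX1 cells.

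PARP14 had 20.3, 20.7 and 34.6 CPM in EV, 39.2, 39.4 and 41.0 in EHF, 43.2, 43.2 and 44.9 in CDX1 and 86.7, 84.1 and 78.6 in EHF+CDX1. Both single-factor lines lay between the others, and PARP14 rose by 1.71 ± 0.17 on the log2 scale in EHF+CDX1 cells. PARP12 had 64.5, 69.3 and 71.2 CPM in CDX1 and 67.2, 69.3 and 67.6 in EHF+CDX1. These lines overlapped, and with a log2 fold change between them of -0.01 PARP12 was not called. PARP9 and DTX3L overlap on chromosome 3 close to PARP14, so reads of the first pair are uncertain.

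In the group of TRIM ubiquitin ligases and SP100 nuclear body proteins, 4 of 6 members rose in EHF+CDX1 cells, with a median log2 fold change of 1.16, the lowest of the 10 groups. SP100, a scaffold of PML nuclear bodies, had 28.6, 26.3 and 40.0 CPM in EV, 52.3, 48.0 and 50.2 in EHF, 65.5, 65.0 and 70.5 in CDX1 and 81.8, 81.4 and 87.8 in EHF+CDX1. The related SP110 had 10.1, 10.3 and 9.94 CPM in EV, 9.84, 10.6 and 11.3 in EHF, 23.1, 14.2 and 20.7 in CDX1 and 27.2, 28.8 and 29.7 in EHF+CDX1. SP100 rose by 1.08 ± 0.13 on the log2 scale in CDX1 and by 1.40 ± 0.14 in EHF+CDX1 cells, and SP110 by 0.93 ± 0.15 and 1.497 ± 0.16. In CDX1 cells limma voom did not call SP100, and SP110 was not called by DESeq2 or without CDX1 replicate 1. TRIM25, which ubiquitinates the RNA sensor RIG-I, was highest in CDX1 cells, with 219.99, 201 and 296 CPM in EV, 263, 262 and 271 in EHF, 543, 439 and 493 in CDX1 and 312 in each EHF+CDX1 library. It rose by 1.04 ± 0.13 in CDX1 cells, where limma voom did not call it, and had a log2 fold change of 0.38 ± 0.13 in EHF+CDX1 cells, which was not called.

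The chemokines CXCL10 and CXCL11 attract T cells through the receptor CXCR3. Both were at 7 counts or fewer in every library outside the line with both factors. CXCL11 had 0, 0 and 1 counts in EV, 1, 4 and 7 in EHF, 5, 4 and 2 in CDX1 and 38, 42 and 21 in EHF+CDX1. The ratio of EHF+CDX1 to EV was 80.2, with an exact 95% counting interval of 14.1 to 3198, and that of CDX1 to EV was 8.75, with an interval of 1.27 to 377. The latter difference was called, but not by limma voom or DESeq2, nor without any 1 EV library or CDX1 replicate 1 or 2. CXCL10 had 29, 46 and 12 counts in the EHF+CDX1 libraries and at most 1 in any other. Both genes lie within the bounds of ART3 on chromosome 4.

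The subunits PSMB8, PSMB9 and PSMB10 replace those of the standard proteasome in the immunoproteasome. PSMB8 had 0.215, 0.284 and 0.257 CPM in EV, 0.266, 0.609 and 0.700 in EHF, 0.767, 0.808 and 0.540 in CDX1 and 5.61, 5.29 and 6.29 in EHF+CDX1. PSMB9 had 1.59, 1.70 and 1.43 CPM in EV, 4.84, 6.39 and 6.54 in EHF, 0.876, 1.01 and 0.669 in CDX1 and 11.2, 13.1 and 11.7 in EHF+CDX1. PSMB8 rose by 4.48 ± 0.33 and PSMB9 by 2.94 ± 0.19 on the log2 scale in EHF+CDX1 cells. In the single-factor lines PSMB9 rose by 1.93 ± 0.19 in EHF cells and PSMB8 by 1.47 ± 0.34 in CDX1 cells, the latter not called by limma voom or DESeq2. PSMB10, on chromosome 16, had 36.9, 33.6 and 22.5 CPM in EV, 21.7, 25.4 and 25.4 in EHF, 9.09, 13.0 and 9.96 in CDX1 and 25.9, 29.3 and 26.0 in EHF+CDX1. It fell by 1.53 ± 0.18 in CDX1 cells and was not called in EHF+CDX1 cells, where its log2 fold change was -0.19 ± 0.18.

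The line with both factors was next set against each single-factor line. Against EHF cells, 39 of the 59 members rose and 0 fell, where 2.49% of all genes rose and 0.189% fell, and the median log2 fold change was 1.75. Among the 49 members that passed the filter without the EHF+CDX1 libraries, 30 rose, against 1.11% of such genes. Of the 19 tested members that were not called, PSMB9 had a log2 fold change of 1.01, SP100 of 0.74, HERC5 of 0.79 and PARP14 of 1.06. Against CDX1 cells, 50 members rose and 0 fell, where 22.3% of all genes rose and 18.7% fell. Of the 49 members above, 41 rose, against 20.9% of such genes. The 8 tested members not called were ISG20, TRIM25, EIF2AK2, SP110, SP100, ZNFX1, DDX60L and PARP12. Between the single-factor lines, 23 members were higher and 5 lower in EHF than in CDX1 cells, where 21.2% of all genes were higher and 19.1% lower. The 5 lower were ISG20, TRIM25, SP110, PARP12 and PARP10. The first 2 of these comparisons share the EHF+CDX1 libraries.

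Whether EHF went with a different change in the presence of CDX1 was tested as an interaction, defined as the difference between the log2 fold change seen with EHF on the CDX1 background and that seen with EHF on the empty vector background. It was above 0 and past the 1.5-fold test in edgeR for 40 of the 59 members and below 0 for 1, ISG20, while 20.2% of all genes were called above and 18% below. In 7 members a line had at most 3 counts, so that their fitted values are set in part by the small count added before taking logs. Of the 52 others, 37 were called above and 1 below 0, and of the 49 members above 34 were called above 0, against 19.8% of such genes. Among the named members, MX1 had an interaction of 5.35 ± 0.65, OAS1 of 5.28 ± 0.45, CMPK2 of 4.87 ± 0.60 and OAS2 of 4.36 ± 0.65 on the log2 scale. Without EV replicate 3 they were 3.76 for MX1, 5.04 for OAS1, 5.29 for CMPK2 and 2.88 for OAS2, and that of OAS2 was then not called. The interaction was 3.92 ± 0.27 for IFIT1, 2.26 ± 0.47 for IFIT2 and 2.10 ± 0.22 for ISG15, and -1.92 ± 0.25 for ISG20. Without EV replicate 3 that of IFIT2 was 1.42, still called. HERC5 with -0.34, SP100 with -0.34 and SAMD9 with 0.58 were not called. Both the level of EHF without the transgene and the level of CDX1 differed between the backgrounds compared, as given above, and their part in the interaction was not tested.

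**Figure D4:**
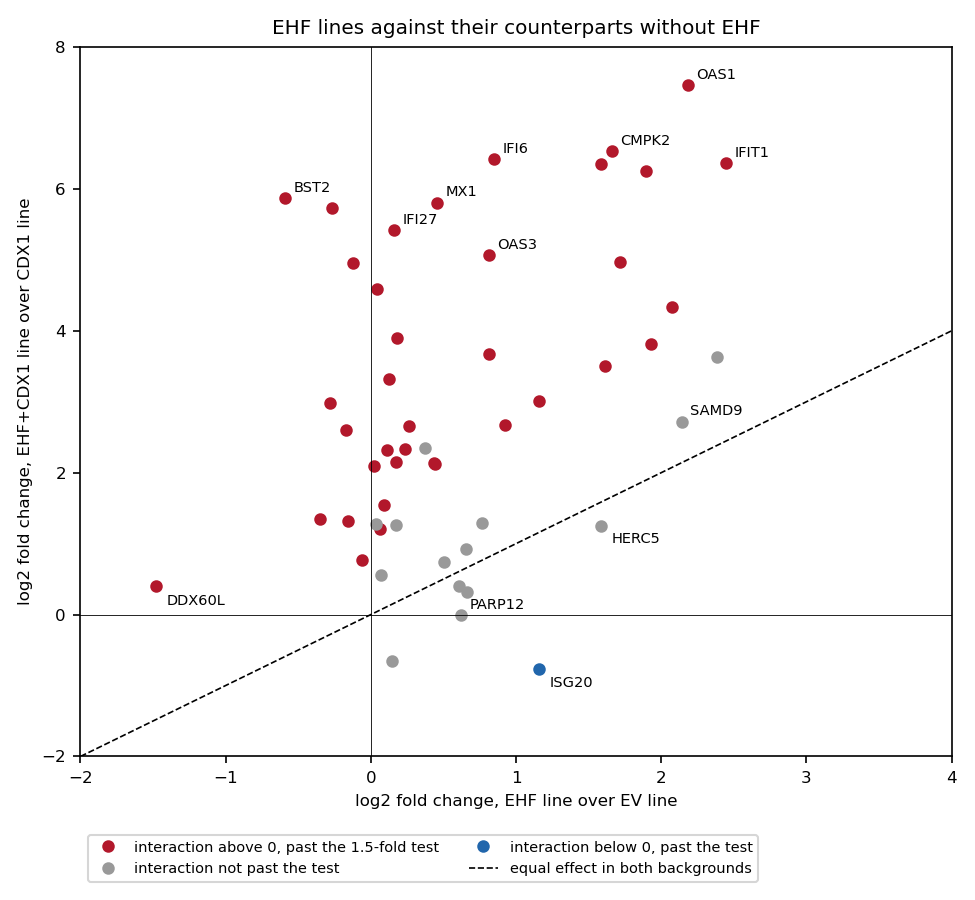
Each point is one of the 52 members with more than 3 counts in every line, with the log2 fold change of EHF over EV cells on the x axis and of EHF+CDX1 over CDX1 cells on the y axis. Most points lie above the dashed line of equal effect, with OAS1 highest, while ISG20 lies below it.

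To compare genes with each other, the deposited log2 RPKM values, which are scaled by exon length, were used. In EHF+CDX1 cells the highest level was that of IFITM3 with 9.80 ± 0.03 log2 RPKM, followed by ISG15 with 9.27 ± 0.11, LGALS3BP with 8.75 ± 0.04 and IFI6 with 8.72 ± 0.09. The last pair did not differ beyond their spread. In EV cells IFITM3 was at 8.94 ± 0.32, LGALS3BP at 8.004 ± 0.64 and ISG15 at 6.91 ± 0.36, and IFI6 only at 3.90 ± 0.69. IFITM3 and LGALS3BP, the 2 highest in EV cells, were thus also among the members not called in EHF+CDX1 cells. RTP4 has no log2 RPKM value. Of the members with one, the lowest in EHF+CDX1 cells were GBP1 with -1.99 ± 0.62 and SAMD9L with -1.93 ± 0.09 log2 RPKM, which overlapped.

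The response of the members was set beside their promoter letters. Of the tested members with a window, 25 of 30 with the ISRE letters (83.3%) and 15 of 18 without them (83.3%) rose in EHF+CDX1 cells. Among other tested genes, 37 of 307 with the letters (12.1%) and 788 of 11734 without them (6.72%) rose. The letters were also present at members that were not called, such as IFITM3, whose stretch is printed above. The GAS letters TTCNNNGAA, the element of the response to interferon gamma, were in 20.4% of member windows. They were in 7.88% of all windows and 6.2% of those of tested genes. The ETS core letters GGAAG were in 75.5%, 71.9% and 75.7% in the same order. The core letters ATAAA of CDX sites were in 46.9%, 35.8% and 22.1%.

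Upstream parts of the pathway were counted with lists of ligands, sensors, receptors, IRF factors and feedback genes. Of all tested genes, 7.3% rose in EHF+CDX1, 5.68% in EHF and 21.3% in CDX1 cells against EV cells. Of 8 interferon ligands, 4 were tested and 3 rose in EHF+CDX1 cells, all of type III. These 3 passed the filter on low counts only through the EHF+CDX1 libraries, so the filter itself favored their rise there. IFNL1 had 0, 0.0473 and 0.0735 CPM in EV and 1.27, 0.759 and 1.80 in EHF+CDX1, and rose by 4.56 ± 0.63 on the log2 scale. IFNL3 had 131 counts over EHF+CDX1 against 2 over EV, a ratio of 51.99 with an exact 95% counting interval of 14.1 to 434. In CDX1 cells it had 14 counts, a ratio of 5.57 with an interval of 1.28 to 50.5, and was called higher. In EHF cells it had 13 counts, a ratio of 4.38 with an interval of 0.993 to 40.0, and was not called. No other ligand rose in a single-factor line, and 0 of the 4 had an interaction that was called. IFNL2 rose as well in EHF+CDX1 cells, but it is near-identical to IFNL3 and their reads are uncertain. IFNB1 had at most 1 count in any library and IFNG had 0 in all 12, so neither was detected above the floor. Of the other type I ligands, IFNE was tested and not called, with a log2 fold change of -0.01 ± 0.60, and IFNA1 had at most 11 counts in a library and did not pass the filter.

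Of 13 sensors and adaptors, 10 were tested and 4 rose. IFIH1, the sensor MDA5 for long double-stranded RNA, had 3.83, 5.44 and 6.43 CPM in EV, 17.9, 20.9 and 20.7 in EHF, 10.9, 13.1 and 10.6 in CDX1 and 57.7, 59.2 and 53.97 in EHF+CDX1, a rise of 3.43 ± 0.17 on the log2 scale in the last. DDX58, the sensor RIG-I, fell by 1.46 ± 0.11 in CDX1 and rose by 1.67 ± 0.11 in EHF+CDX1 cells. IFI16, a DNA sensor, rose by 6.11 ± 0.68, and TLR3 rose by 1.58 ± 0.28. IFI16 passed the filter only through the EHF+CDX1 libraries, so its rise was favored by the filter.

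Of the receptors and kinases, JAK2 had a log2 fold change of 0.88 ± 0.16 in EHF+CDX1 cells and was not called. In EHF cells the log2 fold change of JAK2 was 0.98 ± 0.16, and it was called higher. Of 8 IRF factors, IRF7 rose by 2.0005 ± 0.43 and IRF9 by 1.44 ± 0.34. IRF8 was at least 124-fold higher, with 467 counts over EHF+CDX1 and 0 over EV. IRF8 passed the filter only through the EHF+CDX1 libraries, so its rise was favored by the filter. EV replicate 3 had 30.5 CPM of IRF7, against 7.15 and 7.81 in replicates 1 and 2, and 28.2 CPM of IRF9, against 8.74 and 9.94. Of 6 feedback genes 2 rose in EHF+CDX1, 2 in EHF and 4 in CDX1 cells. In CDX1 cells 1 fell, PTPN6, by 0.79 ± 0.11 on the log2 scale. The CDX1 counts stand beside 21.3% of all genes that rose and 23.3% that fell there. SOCS1, an inhibitor of JAK kinases, rose by 1.92 ± 0.15 on the log2 scale in EHF, 1.38 ± 0.15 in CDX1 and 1.05 ± 0.15 in EHF+CDX1 cells. SOCS2 rose by 1.08 ± 0.14, 2.05 ± 0.14 and 1.21 ± 0.14. Both had an interaction below 0 that was called, -2.25 ± 0.21 for SOCS1 and -1.91 ± 0.19 for SOCS2.

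Of 13 targets chiefly of interferon gamma 10 were tested, and 0 passed the test in either direction in EHF+CDX1 cells. GBP3 had the largest log2 fold change there, 1.06 ± 0.46, and CD74 had 0.9997 ± 0.36, neither called. In CDX1 cells 5 of the 10 rose and 2 fell, where 21.3% of all genes rose and 23.3% fell. In EHF cells 0 rose and 1 fell, where 5.68% of all genes rose and 2.65% fell. Of 10 MHC class I presentation genes 0 were called in EHF+CDX1 cells. The log2 fold change there was 0.83 ± 0.23 for B2M and 0.76 ± 0.24 for TAP2. In CDX1 cells 1 of these genes rose and 2 fell, and in EHF cells 0 were called. That the lists differed from each other was not tested.

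**Figure D5:**
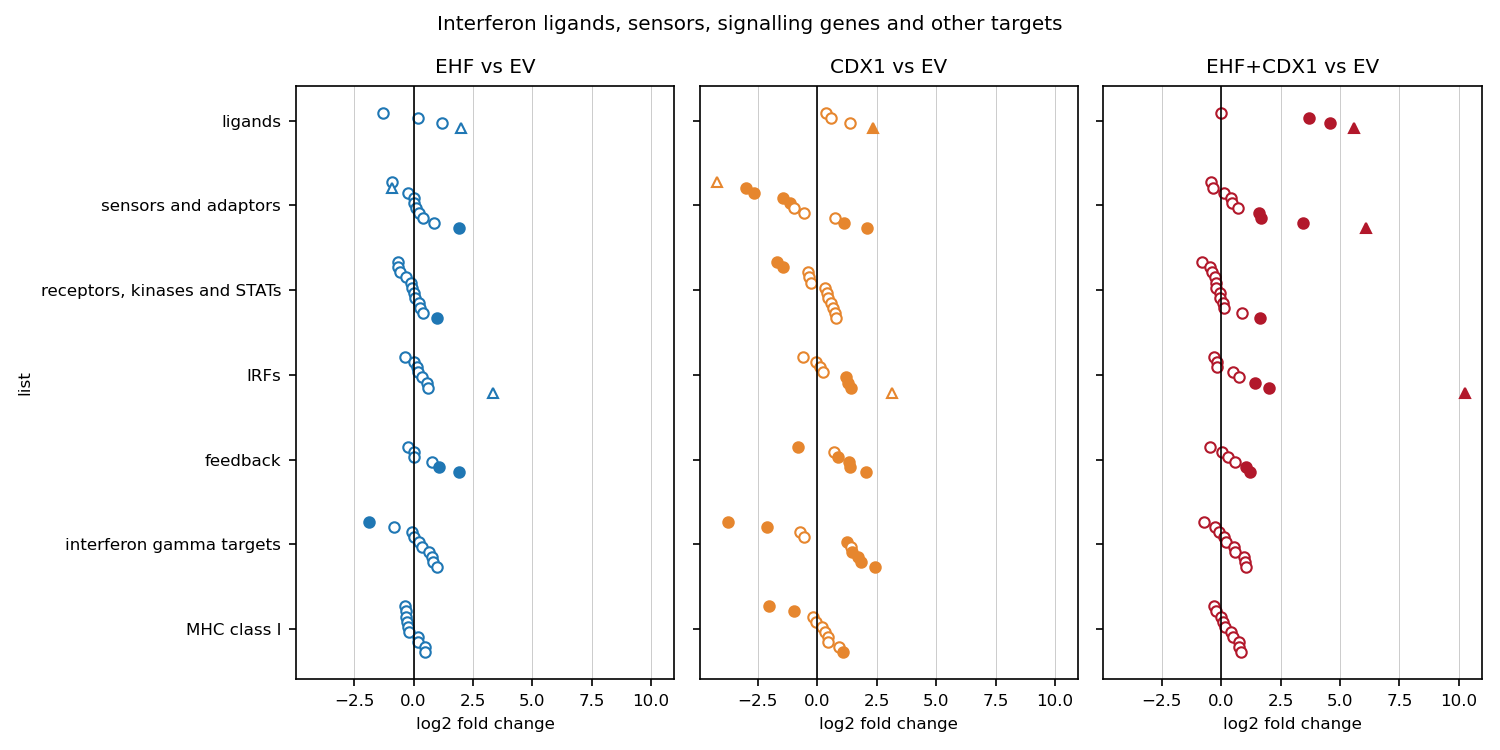
Each point is one gene of a pathway list, with the log2 fold change against EV cells on the x axis from left to right in EHF, CDX1 and EHF+CDX1 cells; filled points passed the 1.5-fold test and triangles had at most 3 counts over a line. In the right panel 3 ligands, 4 sensors, 3 IRF factors and 2 feedback genes are among the filled points, and no gene of the last 2 lists is.

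Markers of cell types were read in the same libraries. The epithelial keratins KRT8, KRT18 and KRT19 were high in all 12, and the 7 epithelial markers summed to between 2745 and 5597 CPM. The 11 leukocyte markers summed to between 2.51 and 11.3 CPM in EV, 15.7 and 16.5 in EHF, 80.7 and 92.7 in CDX1 and 45.0 and 49.3 in EHF+CDX1. Most of this came from CD68, and in EHF+CDX1 cells also from LYZ with 18.5 ± 0.816 CPM. The list also holds IRF8. The defining marker PTPRC was at or near 0, with at most 0.152 CPM in any library, and MS4A1 had 0 counts in all. The sum was highest in CDX1 cells and not in the line with both factors, and its part in the results was not tested.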

How the data were processed

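The authors aligned reads to GRCh38 and deposited a table of read counts per gene over RefSeq exons, made with featureCounts of Subread 2.0.0 according to the submitters' processing notes, from uniquely mapped reads, together with log2 RPKM values made with limma. The strand setting is not given in the sources used here. Groups were taken from the labels. Genes at 0.5 CPM or more in at least 3 libraries were tested, which left out 12542 genes with 0.0585% of the counts, and 550 genes have no symbol. The counts were fitted over all 12 libraries with edgeR 4.0.16 in R 4.3.3 (TMM scaling, quasi-likelihood), and calls were made with its test against a 1.5-fold change at an adjusted p of 0.05, Benjamini-Hochberg over all genes. A log2 fold change is given with its standard error. Adjusted p-values are two-sided. Ratios of genes with 1 to 3 counts in a line carry exact 95% counting intervals, and lines at 0 counts were set to a floor of 3 counts over the line. The deposited log2 RPKM values were used to compare levels between genes. In counts simulated for EHF+CDX1 against EV over 15853 genes, edgeR called 97% of 200 genes changed 4-fold and 1 unchanged gene, and 83% and 0 for the interaction. Alternatives used limma 3.58.1, DESeq2 1.42.0, RLE size factors, other filters and tests, thinned counts, a replicate block and leaving out each library. Figures were drawn with matplotlib 3.10.9 in Python 3.11.15.

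The members and gene lists were chosen with earlier results of these data known. In each role group, the named members were the 2 with the largest absolute log2 fold change in EHF+CDX1 against EV among those called whose mean log2 CPM was not below 0, and the one with the highest mean CPM. The members with the highest and lowest interaction, those called lower and those missing the filter were added, and in each pathway list the 2 genes with the largest change. All other genes were named after their values were seen. Promoter stretches were limited to 8 named members with the ISRE letters before the start, in order of fold change. Some results of the list of receptors and signalling genes are not reported here.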

Additional observations from a re-analysis of the deposited data

Results flagged for a closer look

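By the 1.5-fold interaction test in edgeR, the change seen with EHF differed between cells with and without CDX1 for 41 members. Of these, 40 were above 0 and 1 below, where 20.2% of all genes were called above and 18% below. Among the 52 members with more than 3 counts in every line, 37 were called above 0 and 1 below. The single values below are those of named members among the 52. The log2 interaction was 5.35 for MX1, 5.28 for OAS1, 4.87 for CMPK2, 4.36 for OAS2 and 3.92 for IFIT1. It was 2.86 for PARP9, 2.26 for IFIT2, 2.21 for PARP10 and 2.10 for ISG15. It was 1.88 for PSMB9, 1.85 for PSMB8, 1.75 for USP18 and 1.69 for PSMB10. The smallest above 0 were 1.15 for IFITM3 and 0.83 for ADAR, and that of ADAR was not called by DESeq2 or without any 1 of EV replicates 1 and 2, EHF replicate 2 and EHF+CDX1 replicates 1 and 3. ISG20, with -1.92, was the member called below 0. Without EV replicate 3 the interaction was 3.76 for MX1, 1.42 for IFIT2 and 1.39 for PARP10, all still called, and 2.88 for OAS2, with an adjusted p of 0.0861 in edgeR.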

How the results depend on the processing

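In EHF+CDX1 against EV cells, single named members gave 562 values with the same call and 5 that passed the threshold under an alternative alone. In EHF against EV cells 29 of the named values were no longer past it and in CDX1 against EV cells 31, and no value changed direction under any alternative. In EHF against EV cells the test against no change called 26 members. In CDX1 against EV cells limma voom called 13, DESeq2 15, limma on the deposited log2 RPKM 15 and the test against no change 38. Leaving out 1 library gave 46 to 50 members called in EHF+CDX1 against EV, 9 to 20 in EHF against EV and 20 to 26 in CDX1 against EV. It gave 33 to 44 in EHF+CDX1 against EHF, 48 to 51 against CDX1, 24 to 30 in EHF against CDX1 and 39 to 43 for the interaction. The lowest value in EHF against EV came without EHF replicate 1 and the highest without EV replicate 3. Where a value moved, the cause was not tested beyond the library or test named.

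Same-numbered libraries deviated together with a correlation over 0.1 in 1 of 18 pairs (-0.09 to 0.15), so the numbers do not pair the libraries. The replicate block called 48, 11, 24, 37, 50 and 28 members in the 6 comparisons in the order above and 42 for the interaction. Counting only members that passed the filter without the EHF+CDX1 libraries was added after seeing the data. Depth limits MX2, SAMD9L, IFI44L, XAF1, RTP4, CXCL10 and CXCL11, for which at least 1 line had at most 3 counts. Each condition was 1 line, so the spread covers libraries and not lines.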

Other observations

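Genes outside the list that held the ISRE letters and were higher in EHF+CDX1 than in EV cells numbered 37. Examples chosen after their values were seen are LGALS9, a galectin, with a log2 fold change of 4.39, CEACAM1, an adhesion molecule, with 4.02, TNFRSF1B, a receptor for tumor necrosis factor, with 6.62, NMI, a partner of STAT proteins, with 1.02, and TRIM5, a retroviral restriction factor, with 0.93.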
